A study of Mus musculus with 5 samples.

Results

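The 38 genes described here repair or bypass bulky DNA adducts, the kind of lesion that the carcinogen 4NQO (4-nitroquinoline 1-oxide) forms. They were chosen by name from nucleotide excision repair and translesion synthesis, and all 38 were found among the 27998 genes counted in every library. The 5 libraries hold single cells sequenced by a 3' droplet method, 4 from mammary glands of mice and 1 from a tumor. The tumor library came from a tumor that formed after 24 intraductal injections of 4NQO in a BPK mouse, that is Brca1 wt/flox, Trp53 flox/flox with Krt14cre. BPK glands that received 12 injections of 4NQO gave 2 libraries. PK glands (Brca1 wt/wt, Trp53 flox/flox with Krt14cre) that received 12 injections of 4NQO gave 1 library, and BPK glands that received 12 injections of the PBS/PEG vehicle gave 1. All groups therefore share floxed Trp53 and the Cre, whose Krt14 promoter is active in epithelium and not in fibroblasts, endothelium or leukocytes.

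Nucleotide excision repair finds a helix-distorting lesion in 2 ways. Xpc with Rad23b and Cetn2, helped by the Ddb1 and Ddb2 complex, scans the whole genome, while Ercc6, Ercc8 and Uvssa act where RNA polymerase stalls. TFIIH opens the helix, Xpa and the RPA trimer hold the open strands, and Ercc1 with Ercc4, and Ercc5, cut out the damaged stretch. DNA polymerases and ligases fill and seal the gap. Lesions that remain at a replication fork can be passed by translesion polymerases, which are called in when Rad18, with Ube2a or Ube2b, attaches ubiquitin to PCNA.

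After filters 31526 of 34526 cell barcodes were kept, from 2248 in the tumor to 8683 in the vehicle gland, and their total depth ran from 25218534 to 57674576 UMIs per library. Of the groups, BPK 4NQO alone has 2 libraries. No label ties them to separate mice, so p-values measure only the spread between these libraries, which may be technical. Replicate 2 of BPK 4NQO stood apart: no other library had more than 2 barcodes in common with it, whereas the others shared up to 107 among themselves. Whether replicate 2 was made with the 3' v2 chemistry given in the labels was not tested, so the spread between the replicates may be partly technical. Clusters were named from markers as luminal alveolar-like, luminal hormone-sensing-like, basal-like, fibroblast-like, endothelial-like, macrophage-like, T cell-like and keratinocyte-like cells, written below without the suffix. In epithelial cells the floxed Trp53 stood at 10.2 CPM (UMIs of a gene per 1000000 UMIs of the same cells) in the tumor, 44.6 and 22.0 in BPK 4NQO, 43.5 in PK 4NQO and 47.8 in BPK vehicle, and Brca1 at 0.961 to 2.32. The floxed part of each gene is not given in the sources used here, and a 3' tag outside it does not check the genotype.

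A few of these genes carried much of the signal. In the order tumor, BPK 4NQO replicates 1 and 2, PK 4NQO and BPK vehicle, all 38 together made up 1293, 1217, 1143, 1131 and 1164 CPM of all kept cells. Ube2b, a ubiquitin-conjugating enzyme that works with Rad18, stood highest in every library, with 189 CPM in the tumor, 256 and 161 in BPK 4NQO, 249 in PK 4NQO and 225 in vehicle. The gene Gm26551 covers the 3' end of Ube2b on the same strand, so how their reads were divided is uncertain. Gtf2h5, the smallest TFIIH subunit, had 164 in the tumor, 170 and 120 in BPK 4NQO, 147 in PK 4NQO and 154 in vehicle. At the other end Polh, the polymerase that passes ultraviolet-induced pyrimidine dimers, had 0.299 in the tumor, 0.255 and 1.39 in BPK 4NQO, 0.396 in PK 4NQO and 0.312 in vehicle. These values count 3' tags, so they rank transcripts per tag and not per length. Free RNA was not removed from the counts.

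**Figure D1:**
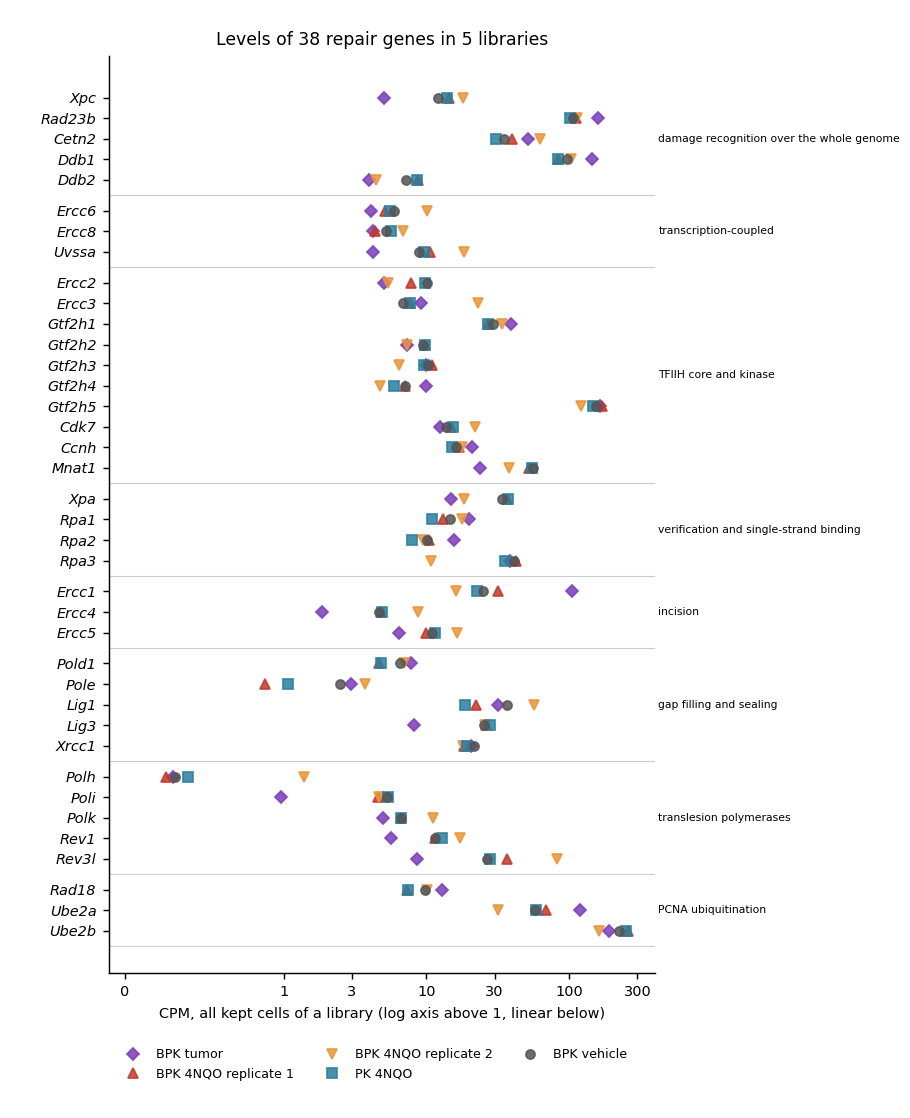
CPM of each of the 38 genes over all kept cells of a library, on an axis that is logarithmic above 1 and linear below, grouped by role. Each symbol is 1 library. Ube2b and Gtf2h5 lie far right and Polh far left, and BPK 4NQO replicate 2 lies away from the other gland libraries for many genes, such as Rpa3 and Ercc3.

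The replicates of BPK 4NQO differed from each other more than replicate 1 differed from the vehicle gland. Over all cells the median absolute log2 difference among the 38 genes was 0.62 between replicate 2 and replicate 1, and 0.18 between replicate 1 and vehicle. Over 13014 genes with enough counts the same medians were 0.70 and 0.18. In all 6 cell classes that each gland library held, replicate 2 lay above the other 3 gland libraries for 6 members, namely Ercc6, Uvssa, Ercc3, Ercc5, Rev1 and Rev3l. It lay below them in all 6 for another 5, namely Gtf2h5, Rpa3, Ercc1, Ube2a and Ube2b. Of 13014 genes, 16.7% lay above in all 6 classes and 9.61% below, so both counts are near the background. Eif5b covers the 3' end of Rev1 on the opposite strand. Rpa3, the small subunit of the RPA trimer, had 10.8 CPM in replicate 2 and 42.6 in replicate 1. Ercc3, a TFIIH helicase, had 23.0 in replicate 2 and 7.70 in replicate 1. This spread enters every test below that uses both replicates.

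For 10 of the 38 members the same cell class stood highest in all 4 gland libraries, which held for 43.0% of 13014 genes. The classes are described without a test, because clusters were drawn from the same cells, although the 38 genes were left out of the clustering. Hormone-sensing luminal cells, which express estrogen and progesterone receptors, had the highest level of Gtf2h5, Rad23b, Rev3l and Polk in all 4 gland libraries. Gtf2h5 stood there at 288 and 215 CPM in BPK 4NQO, 254 in PK 4NQO and 263 in vehicle. In alveolar cells of the same libraries it stood at 128, 74.1, 121 and 114, with no overlap. The smallest ratio of its hormone-sensing level to the next class was 1.54. Rev3l, the catalytic subunit of DNA polymerase zeta, had 70.5 and 173 in BPK 4NQO hormone-sensing cells, 58.1 in PK 4NQO and 39.6 in vehicle, and no more than 31.9 in the other 5 classes of replicate 1, PK 4NQO and vehicle. For Rad23b, the partner of Xpc, and Polk, a translesion polymerase, the smallest ratios to the next class were 1.01, within counting error.

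Endothelial cells had the highest Ercc1 in each gland library. Ercc1 is the partner of the Ercc4 nuclease and lies on chromosome 7 from 19344778 to 19356524 (mm10). It stood at 134 and 44.2 CPM in BPK 4NQO endothelium, 74.4 in PK 4NQO and 101 in vehicle. In basal cells it had 34.3 and 16.1 in BPK 4NQO, 30.5 in PK 4NQO and 32.5 in vehicle. Endothelium stood at least 1.83 times above the next class in every gland library. The antisense gene Cd3eap covers the 3' end of Ercc1, and whether the counting used strand is not given in the sources used here. Uvssa, which brings TFIIH to stalled RNA polymerase, was also highest in endothelium, with 20.5 and 34.9 in BPK 4NQO, 20.9 in PK 4NQO and 23.5 in vehicle, but in replicate 2 it stood only 1.04 times above fibroblasts.

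Alveolar luminal cells, the milk-producing lineage, had the highest Lig3 and Ercc2 of the 6 classes. Lig3, the ligase that works with Xrcc1, had 38.05 and 53.2 CPM in BPK 4NQO, 35.0 in PK 4NQO and 29.8 in vehicle. Ercc2, the other TFIIH helicase, had 10.9 and 12.9 in BPK 4NQO, 12.4 in PK 4NQO and 12.6 in vehicle. Antisense genes cover the 3' ends of both, Rffl for Lig3 and Klc3 for Ercc2. Basal cells had the highest Rad18 and Ercc5. Rad18, the ubiquitin ligase for PCNA, had 16.5 and 18.1 in BPK 4NQO basal cells, 23.1 in PK 4NQO and 19.5 in vehicle, and the next class stood at least 1.56 times lower. T cells, named in 3 gland libraries, had Lig1 at 110 and 249 in BPK 4NQO and 113 in PK 4NQO, above the 6 other classes of the same library. Proliferation genes were high in the same T cells, 10 of them summing to 1499 and 2163 in BPK 4NQO and 1311 in PK 4NQO, and their part in the Lig1 level was not tested.

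**Figure D2:**
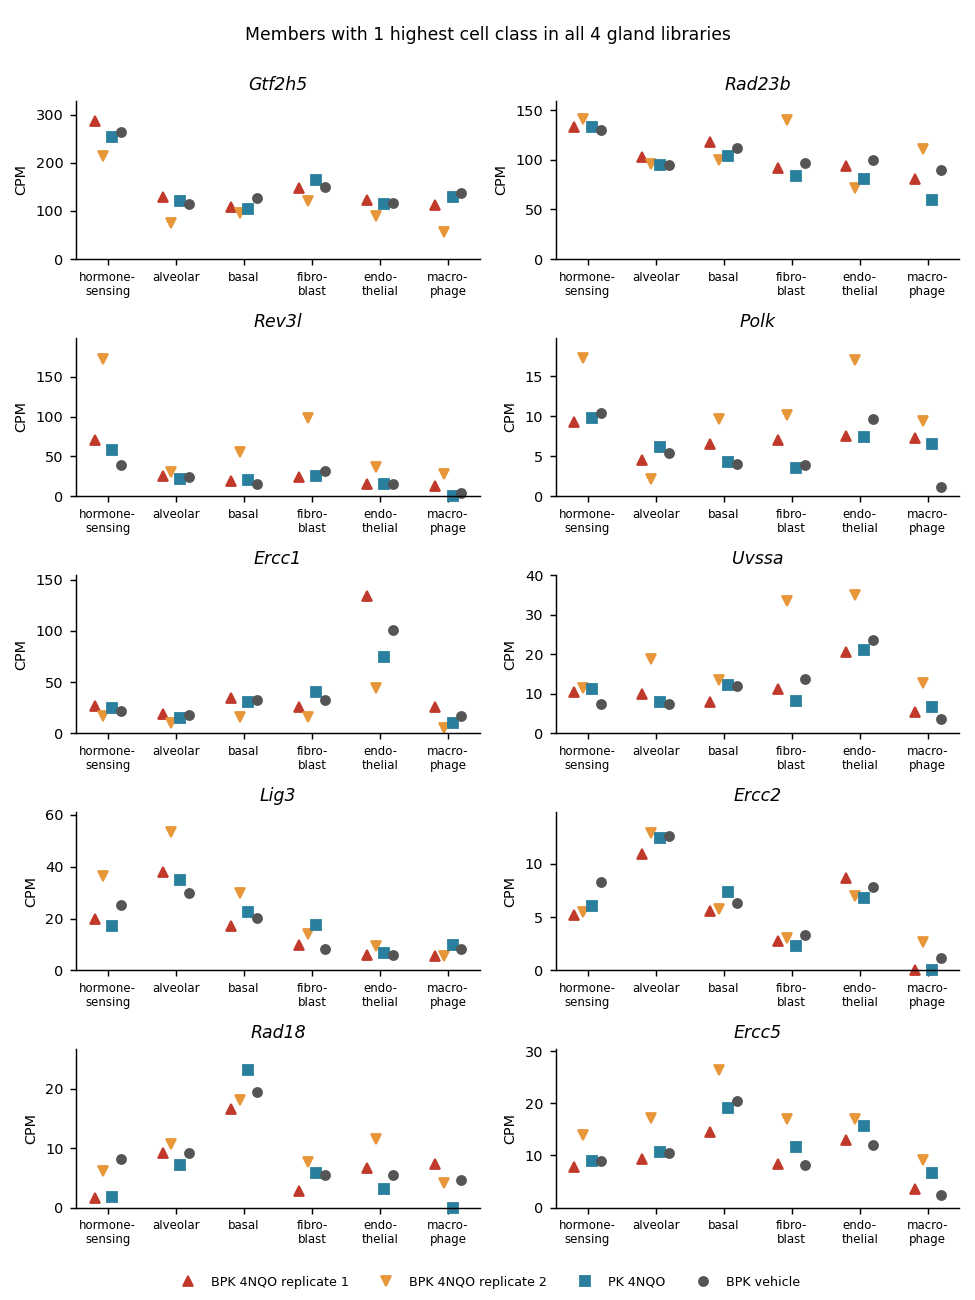
CPM of 10 genes in 6 cell classes (horizontal axis), one symbol for each of the 4 gland libraries. Each gene has 1 class that is highest in all 4 libraries, such as endothelium for Ercc1 (44.2 to 134) and hormone-sensing cells for Gtf2h5 (215 to 288).

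The comparison of BPK 4NQO with BPK vehicle asks what 12 injections of the carcinogen did to these genes in 1 genotype. No member passed the test in any of 6 classes (edgeR quasi-likelihood, Benjamini-Hochberg over all genes of a class, adjusted p under 0.05). The number of members tested was 37 in alveolar, 37 in hormone-sensing, 36 in basal, 35 in endothelial, 33 in fibroblast and 20 in macrophage cells. Over all genes, 0.276% passed in alveolar, 0.643% in hormone-sensing, 0.677% in basal, 0.127% in endothelial, 0.324% in fibroblast and 0% in macrophage cells. DESeq2 called 0 members as well. The median log2 fold change of the members was -0.11 in alveolar, -0.06 in hormone-sensing and -0.21 in basal cells, where all genes stood at -0.01, 0.02 and 0.02. Without replicate 2 the members' medians were -0.02, 0.01 and 0.02.

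At an unadjusted p under 0.05 stood 0 members in alveolar, basal, endothelial, fibroblast and macrophage cells, where 1.61%, 2.81%, 1.61%, 3.35% and 1.7% of all genes did. In hormone-sensing cells 2 of 37 did, beside 3.63% of all genes. These are Pold1 and Pole, catalytic subunits of the replicative polymerases delta and epsilon, named after their values were seen. Pold1 had 1.73 and 3.29 CPM in BPK 4NQO hormone-sensing cells, and 7.84 in vehicle. Pole had 0.288 and 1.46 in BPK 4NQO, and 3.54 in vehicle. Both replicates lay below the vehicle library for each gene. The log2 fold change was -1.81 ± 0.85 (SE) for Pold1 and -2.43 ± 1.23 for Pole, with adjusted p = 0.9998 for both. DESeq2 put neither of them at an unadjusted p under 0.05, and of all members only Rev3l, which lay higher. Cycling cells moved with this difference: hormone-sensing cells with at least 2 of 10 proliferation genes numbered 6 and 31 in BPK 4NQO, and 430 in vehicle. Among hormone-sensing cells with none of those genes, Pold1 had 1.59 and 2.83 in BPK 4NQO and 3.08 in vehicle. The vehicle class also held 2 clusters led by Upk3a, 557 of its 1854 cells, and no BPK 4NQO cluster had Upk3a among its 10 leading genes. Alveolar markers summed to 663 and 338 CPM in this class of BPK 4NQO, and 1735 in vehicle. Without those clusters vehicle stood at 4.80 for Pold1 and 2.02 for Pole, and the log2 fold changes were -1.18 ± 0.94 and -1.69 ± 1.40, no longer at an unadjusted p under 0.05.

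Among members with a mean of at least 20 CPM, the larger differences on each side included the following. Rev3l in hormone-sensing cells had 70.5 and 173 CPM in BPK 4NQO, and 39.6 in vehicle, a log2 fold change of 1.47 ± 0.97. Without replicate 2 the value was 0.91, and without replicate 1 it was 1.87. Without the Upk3a clusters vehicle stood at 48.7 for Rev3l, and the log2 fold change was 1.08 ± 0.96. Lig1, the replicative DNA ligase, had 10.8 and 45.7 in BPK 4NQO hormone-sensing cells and 55.9 in vehicle, a log2 fold change of -1.19 ± 0.78. Among hormone-sensing cells with none of the proliferation genes it had 10.5 and 36.8 in BPK 4NQO and 14.8 in vehicle, so replicate 2 lay above vehicle. Without the Upk3a clusters the log2 fold change of Lig1 was -0.26. The lowest of these log2 fold changes was that of Xpa, which verifies the lesion, in macrophages, at -1.36 ± 0.99. There Xpa had 14.6 and 14.7 CPM in BPK 4NQO and 34.1 in vehicle. Among basal cells too Xpa was the lowest member, with 27.2 and 15.5 in BPK 4NQO and 44.2 in vehicle (-1.11 ± 0.73). Ncbp1 covers the 3' end of Xpa on the opposite strand. The basal class of vehicle held a cluster of 222 cells led by Mustn1 and Sparcl1, as did that of PK 4NQO (198 cells), whereas clusters with the same leading genes were unnamed in BPK 4NQO. Pericyte markers summed to 14.3 and 11.6 CPM in BPK 4NQO basal cells, 167 in PK 4NQO and 97.4 in vehicle. Without those clusters Xpa in basal cells stood at 42.7 in vehicle and its log2 fold change was -1.08. Rpa3 lay below vehicle in both BPK 4NQO replicates in basal, fibroblast, hormone-sensing and macrophage cells, by log2 fold changes of -0.76 to -1.15. Without replicate 2 it was -0.34 in fibroblasts and -0.14 in macrophages. The tests could see only large changes: in alveolar cells the median half-width of the 95% interval was 1.37 on the log2 scale. There, 33 of 37 intervals lay within 4-fold either way and 0 within 2-fold.

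**Figure D3:**
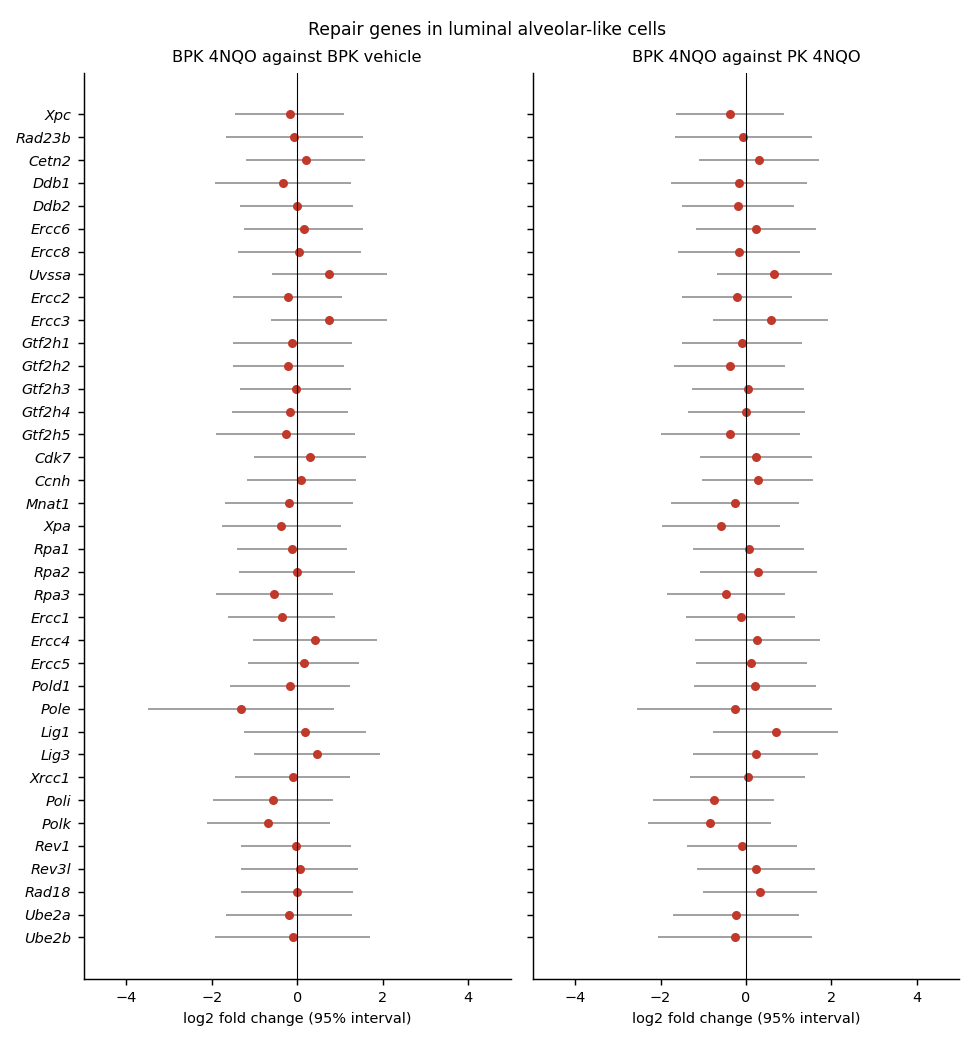
Log2 fold change (points) with 95% interval (lines) of 37 repair genes in luminal alveolar cells, for BPK 4NQO over BPK vehicle on the left and BPK 4NQO over PK 4NQO on the right. Every interval crosses 0.

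The comparison of BPK 4NQO with PK 4NQO sets glands with 1 floxed Brca1 allele against Brca1 wild-type glands under the carcinogen. It uses the same BPK 4NQO libraries. The Krt14 promoter of the Cre is not active in fibroblasts, endothelium or leukocytes, so those classes are not a comparison of cells that lost the allele. PK 4NQO alone was counted with Cell Ranger 3.0.2, the others with 5.0.1, so genotype and version cannot be told apart. No member passed in any of 7 classes, the 6 above and T cells with 14 members tested, by edgeR or by DESeq2. Over all genes, 0.119% passed in alveolar, 0.212% in hormone-sensing, 0.609% in basal, 0.00976% in endothelial, 0.277% in fibroblast, 0.0543% in macrophage and 0.0904% in T cells. At an unadjusted p under 0.05 stood only Ercc8, the transcription-coupled repair factor, in fibroblasts, where 3.57% of all genes did, and it was named after its values were seen. In the other classes 0.81% (endothelial) to 2.56% (basal) of all genes did, with 1.46% in alveolar, 2.13% in hormone-sensing, 1.85% in macrophage and 1.99% in T cells. DESeq2 put 0 members there. Ercc8 had 4.89 and 5.97 CPM in BPK 4NQO fibroblasts, and was at 0 in PK 4NQO, where 3 counts would have given 3.48. Ercc8 in the vehicle fibroblasts, at 7.71, lay above both. Alveolar markers summed to 394 and 224 CPM in BPK 4NQO fibroblasts, and 853 in PK 4NQO, and the part of other cells in this difference was not tested.

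Lig1 in basal cells had 38.7 and 40.7 CPM in BPK 4NQO, and 13.3 in PK 4NQO, a log2 fold change of 1.45 ± 0.82 (SE). Here the replicates lay close together and above PK 4NQO, but adjusted p was 1 and the vehicle library stood at 33.4. Without the Mustn1 and Sparcl1 clusters PK 4NQO stood at 14.1 and the log2 fold change was 1.35. A list of 20 S phase genes had a median log2 fold change of 0.92 in the same basal comparison, with 0 of 20 past the test. Xpa in basal cells had 27.2 and 15.5 in BPK 4NQO, and 44.4 in PK 4NQO (-1.12 ± 0.74), or 41.2 in PK 4NQO without that cluster. Rpa3 in fibroblasts had 31.4 and 9.05 in BPK 4NQO, and 52.2 in PK 4NQO (-1.40 ± 0.77). For both genes replicate 2 lay farthest from PK 4NQO. Among the 32 further genes of these pathways, such as the clamp loader and other polymerase subunits, 0 passed in either comparison.

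Epithelial cells in the cell cycle differed from the others in the repair genes that also serve replication. Cycling cells were taken as epithelial cells with at least 2 of 10 proliferation genes, none of them a member, and were set against cells with none. They numbered 503 of 995 epithelial cells in the tumor, 241 of 4245 and 64 of 1616 in BPK 4NQO, 369 of 5215 in PK 4NQO and 1222 of 6405 in vehicle. Of 37 members tested, 8 rose and 1 fell in cycling cells (edgeR with library as a block), against a background of 6.37% of all genes higher and 5.77% lower. The median log2 fold change was 0.12 for the members and -0.01 for all genes.

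The replicative enzymes that fill the repair gap showed the largest differences. Pole lies on chromosome 5 from 110286306 to 110337474 and had 3.99 CPM in cycling and 0.290 in other tumor cells. In BPK 4NQO it had 4.69 against 0.403 and 12.7 against 0.615, in PK 4NQO 4.33 against 0.604 and in vehicle 7.06 against 0.697. Pole was thus higher in cycling cells of every library, with a log2 difference of 3.29 ± 0.29 (SE; adjusted p = 3.50e-05). Lig1, on chromosome 7 from 13277283 to 13311433, had 40.6 CPM in cycling and 11.3 in other tumor cells. It had 95.8 against 14.5 and 157 against 33.6 in BPK 4NQO, 48.0 against 14.1 in PK 4NQO and 92.1 against 14.8 in vehicle (2.20 ± 0.16, adjusted p = 7.15e-06). Pold1 had 9.64 in cycling and 1.74 in other tumor cells, 19.4 against 2.70 and 16.9 against 4.30 in BPK 4NQO, 12.7 against 3.67 in PK 4NQO and 12.6 against 4.28 in vehicle (1.99 ± 0.23, adjusted p = 0.000278). Cycling and other libraries did not overlap for any of the 3 genes. Lig3 and Xrcc1, which seal nicks outside replication as well, did not pass. Without a filter on low counts Xrcc1 did, as higher in cycling cells (0.50 ± 0.17, adjusted p = 0.0468, edgeR).

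All 3 subunits of the RPA trimer, the binder of single-stranded DNA in both repair and replication, rose. Rpa2 had 19.7 CPM in cycling and 6.95 in other tumor cells, 28.8 against 6.78 and 10.6 against 7.17 in BPK 4NQO, 17.7 against 5.44 in PK 4NQO and 17.7 against 6.10 in vehicle (1.56 ± 0.18, adjusted p = 0.000285). Rpa1 rose by 1.08 ± 0.19 (adjusted p = 0.00493) and Rpa3 by 0.80 ± 0.16 (adjusted p = 0.00839). In BPK 4NQO replicate 2 the difference in Rpa1 was small, 14.8 in cycling against 13.7 in other cells, and in PK 4NQO that of Rpa3 was small, 40.0 against 33.6. The stretches upstream of the 3 genes are shown because the genes moved together. They come from RefSeq (GRCm38.p6), on the gene's strand, 5′ to 3′, and end at the more upstream of the RefSeq and GENCODE starts. Capitals mark CCAAT or its reverse complement ATTGG.

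Rpa1 (chr11:75348384-75348633, minus strand): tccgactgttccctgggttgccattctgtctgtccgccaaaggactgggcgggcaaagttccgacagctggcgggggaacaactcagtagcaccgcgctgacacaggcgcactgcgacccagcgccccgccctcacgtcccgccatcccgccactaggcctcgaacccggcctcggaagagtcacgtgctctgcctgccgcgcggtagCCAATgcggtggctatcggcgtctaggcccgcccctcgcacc

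Rpa2 (chr4:132768110-132768331, plus strand): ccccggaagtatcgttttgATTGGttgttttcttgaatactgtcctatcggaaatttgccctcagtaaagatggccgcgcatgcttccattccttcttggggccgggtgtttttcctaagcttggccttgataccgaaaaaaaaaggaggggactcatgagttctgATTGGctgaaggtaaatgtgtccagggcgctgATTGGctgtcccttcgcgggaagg

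Rpa3 (chr6:8259174-8259391, minus strand): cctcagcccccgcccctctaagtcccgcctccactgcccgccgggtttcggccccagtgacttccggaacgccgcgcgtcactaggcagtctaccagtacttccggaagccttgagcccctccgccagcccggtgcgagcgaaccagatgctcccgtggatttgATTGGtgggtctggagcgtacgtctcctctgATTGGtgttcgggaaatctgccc

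The shown stretches hold 1, 3 and 2 matches, in the order Rpa1, Rpa2 and Rpa3. CCAAT in either orientation was present in the window of 250 bases before to 50 after the start for 12 of 31 members with a RefSeq entry, and for 41.1% of 27025 genes, so its presence is common. Of the 7 rising members with an entry, 3 hold it. An E2F consensus, searched on both strands as TTTGGCGC, TTTCCCGC, TTTGCCGC and TTTCGCGC, was present for 2 of 31 members, Lig1 and Pold1, and for 2.60% of all genes. A match is a run of letters and was not tested as a site.

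Rad18, which marks stalled forks by ubiquitin on PCNA, rose as well. It had 13.6 CPM in cycling and 4.35 in other tumor cells, 23.8 against 6.13 and 25.4 against 9.22 in BPK 4NQO, 24.0 against 6.13 in PK 4NQO and 17.4 against 7.43 in vehicle (1.59 ± 0.17, adjusted p = 0.000157). Its partners Ube2a and Ube2b did not pass. Ddb1, which also builds the Cul4 ubiquitin ligase, rose by 0.36 ± 0.10 (adjusted p = 0.0454), the smallest change and the one most often lost under other settings. Of the other whole-genome recognition genes, Xpc, Rad23b, Cetn2 and Ddb2, no member passed. Nor did any of the 10 TFIIH members, the transcription-coupled factors, Xpa or the incision nucleases.

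Rev3l was the member that fell. It had 7.77 CPM in cycling and 16.5 in other tumor cells, 25.1 against 40.9 and 84.6 against 101 in BPK 4NQO, 19.0 against 31.1 in PK 4NQO and 23.0 against 28.9 in vehicle (-0.67 ± 0.13, adjusted p = 0.00837). Cycling cells were lower in each library. Rev3l is highest in hormone-sensing cells, and 6 of 241 cycling but 1336 of 3582 other cells of BPK 4NQO replicate 1 were of that class. In PK 4NQO these were 13 of 369 and 1255 of 4457, and in the tumor 68 of 503 and 80 of 271. In BPK 4NQO replicate 2 they were 31 of 64 and 433 of 1403, and in vehicle 430 of 1222 and 1170 of 4357. In replicate 2 and vehicle the share was thus larger among cycling cells. The part of class composition in the Rev3l difference was not tested. Within alveolar cells alone the log2 fold change of Rev3l was -0.26 and the call was lost (adjusted p = 0.263, edgeR). That setting left out BPK 4NQO replicate 2 and the tumor, which held only 15 and 8 cycling alveolar cells. Xpa fell in that setting (-0.48 ± 0.13, adjusted p = 0.0285, edgeR) and without the tumor (-0.51 ± 0.13, adjusted p = 0.0248), but not with all libraries and classes.

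The replication genes around these members moved in the same cells. Of 32 further pathway genes, 31 were tested and 11 rose, among them the clamp loader genes Rfc1 to Rfc5, Pcna, Pold2, Pole2 and Pole3, and Usp1, which removes ubiquitin from PCNA. Rfc5 rose by 2.28 ± 0.20 (adjusted p = 3.69e-05) and Pcna by 0.80 ± 0.16 (adjusted p = 0.0101). Of 20 S phase genes, 19 rose, with a median of 2.54. Cycling cells held more UMIs: the median was 34815 in cycling and 9950 in other tumor cells, and 5831 to 11595 against 2663 to 5040 in the gland libraries. In another setting, cells with at least 2000 UMIs were thinned to 2000 and sorted anew by the proliferation genes. BPK 4NQO replicate 2 then held 25 cycling cells, under the limit of 30, and was left out. Of 31 members tested there, 5 rose and 1 fell. In that setting Ddb1 and Rpa3 no longer passed (adjusted p = 0.629 and 0.0520), and Pole was too low to be tested.

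**Figure D4:**
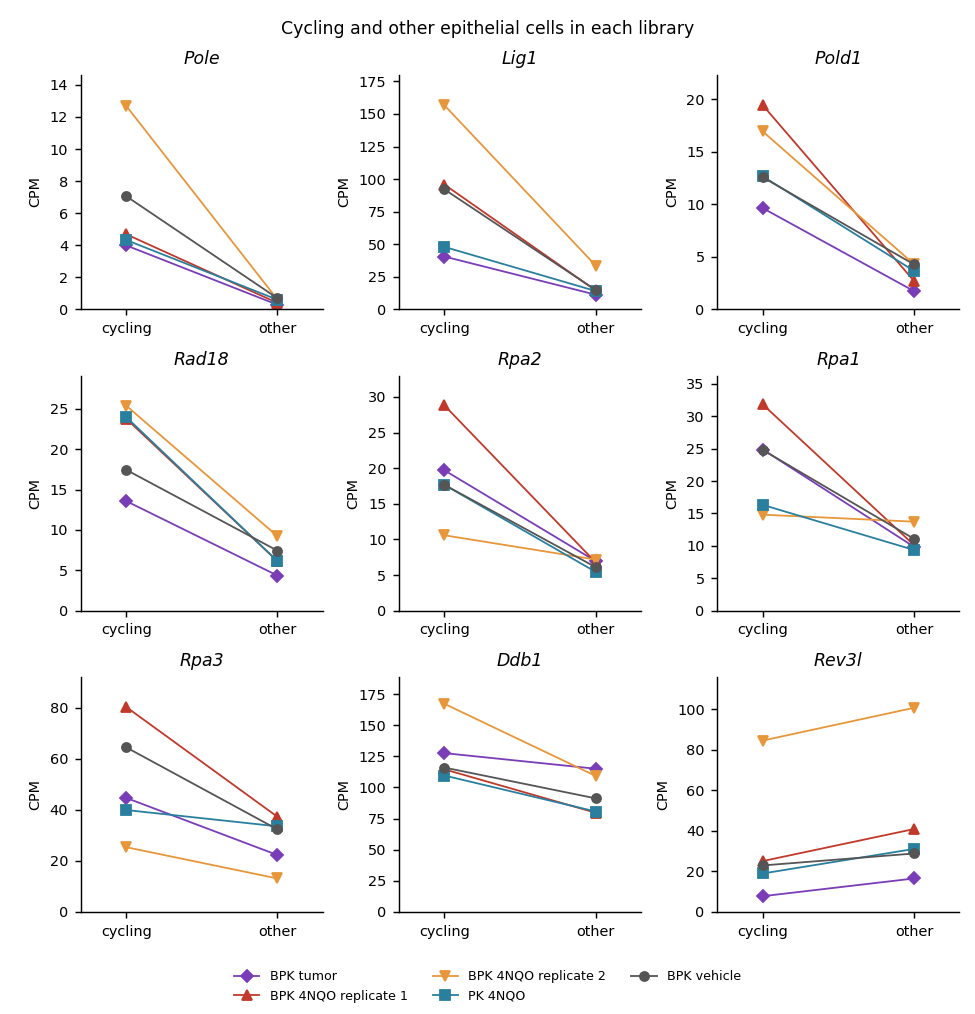
CPM of the 9 members that passed the test, in cycling and other epithelial cells, with 1 line per library. Lines fall to the right in all 5 libraries for 8 genes and climb to the right in all 5 for Rev3l.

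The tumor was set against BPK 4NQO glands in the 4 classes that both held in sufficient number. Only 1 member passed in 1 class: Uvssa, on chromosome 5 from 33378549 to 33419754, fell in tumor endothelium. It had 3.87 CPM there (8 counts), against 20.5 and 34.9 in BPK 4NQO endothelium (52 and 45 counts). The log2 fold change was -2.66 ± 0.84 (SE, adjusted p = 0.0443, edgeR), and the tumor value also lay below PK 4NQO at 20.9 and vehicle at 23.5. Members tested numbered 35 in endothelial, 35 in fibroblast, 37 in hormone-sensing and 22 in macrophage cells. Over all genes 3.72%, 2.8%, 1.96% and 0.402% passed in those classes, and 1.72% passed as lower in endothelium, so 1 of 35 is near the background. DESeq2 gave Uvssa an adjusted p of 0.265, and the edgeR call was also lost with doublets kept (0.0571), with a direct marker gate (0.0593) and without a filter on low counts (0.0655).

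Uvssa in fibroblasts had 3.15 CPM in the tumor, against 11.2 and 33.5 in BPK 4NQO (-2.58 ± 0.87, adjusted p = 0.0857). In hormone-sensing cells it had 7.95 in the tumor, against 10.5 and 11.3 in BPK 4NQO. The tumor lay below both BPK 4NQO libraries in each class, but in hormone-sensing cells the vehicle gland was lower still, at 7.49. Markers of other cells moved with the tumor's endothelium: 7 of 9 keratinocyte markers were higher there, their sum being 921 CPM in the tumor, against 73.7 and 34.1 in BPK 4NQO, with Calml3 at 0. Their part in the Uvssa result was not tested. Uvssa in the tumor's keratinocyte cells stood at 4.76.

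Rev3l lay lower in the tumor in each class that was compared, without passing. It had 10.1 CPM in tumor endothelium, against 15.8 and 37.2 in BPK 4NQO (-1.20 ± 0.74, adjusted p = 0.486). In fibroblasts it had 11.7 in the tumor, against 24.4 and 97.9 in BPK 4NQO (-2.11 ± 0.85, adjusted p = 0.21), and without replicate 2 the log2 fold change was -0.98. In hormone-sensing cells it had 23.5 in the tumor, against 70.5 and 173 in BPK 4NQO (-2.21 ± 1.00, adjusted p = 0.498). Ube2a lay higher in the tumor in all 4 classes, for example 130 in tumor endothelium against 68.2 and 31.0 in BPK 4NQO (1.48 ± 0.73, adjusted p = 0.326). Ercc1 in fibroblasts had 48.8 in the tumor, against 25.8 and 15.8 in BPK 4NQO (1.45 ± 0.74, adjusted p = 0.41). Keratinocyte markers summed to 1372 in tumor fibroblasts, against 428 and 214 in BPK 4NQO, and basal markers to 2498, against 188 and 180. Rpa2 in hormone-sensing cells had 16.5 in the tumor, against 4.12 and 3.29 in BPK 4NQO (2.19 ± 0.77, adjusted p = 0.159). Keratinocyte markers summed to 5424 in the tumor's hormone-sensing cells, against 653 and 1007 in BPK 4NQO, and basal markers to 1356, against 49.95 and 85.6. For both classes 7 of 9 keratinocyte markers were higher in the tumor, and their part in these differences was not tested. Among hormone-sensing cells 68 of 201 tumor cells were cycling, against 6 of 1501 and 31 of 525 in BPK 4NQO. Among hormone-sensing cells with none of the proliferation genes Rpa2 had 9.63 in the tumor, against 4.08 and 3.30 in BPK 4NQO.

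At an unadjusted p under 0.05 stood 3 of 35 members in endothelium, 2 of 35 in fibroblasts, 2 of 37 in hormone-sensing cells and 1 of 22 in macrophages, where 14.5%, 12.2%, 7.43% and 3.83% of all genes did. Beside those given, these were Ercc3 in endothelium and Rev3l in macrophages, both named after their values were seen. Ercc3 had 4.35 CPM in tumor endothelium, against 8.67 and 34.1 in BPK 4NQO. Rev3l had 2.26 in tumor macrophages, which is only 3 counts, against 12.8 and 27.6 in BPK 4NQO. In macrophages of the other gland libraries Rev3l was at 0 in PK 4NQO and 3.53 in vehicle, so the tumor did not lie below all glands.

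**Figure D5:**
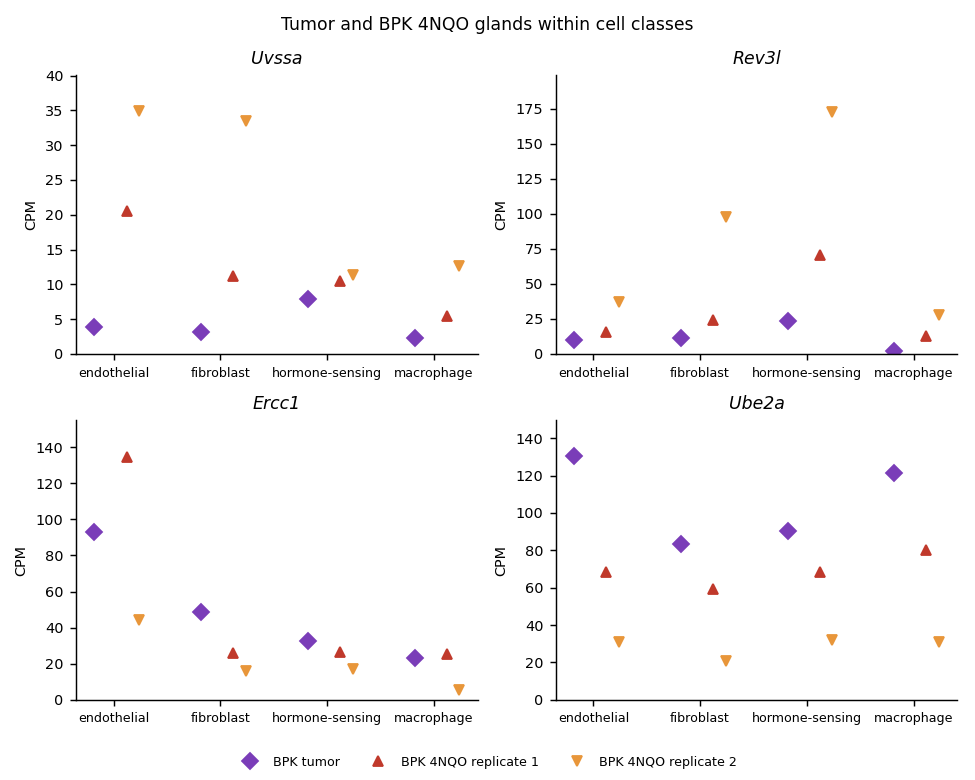
CPM of 4 members in the 4 cell classes compared, for the tumor (left symbol) and the 2 BPK 4NQO libraries (right symbols). The tumor lies below both libraries in every class for Uvssa and Rev3l and above both in every class for Ube2a.

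The largest named class of the tumor, 738 keratinocyte cells, had at most 14 cells in any gland library, so its levels are given beside gland basal cells with no test. The direct marker gate, which assigns single cells by their markers, put 35 and 54 cells of BPK 4NQO in this class. There 0 of 15 members passed against a background of 0.711%, and 0 of 36 did in basal cells, against 2.24% (edgeR). Of 38 members, 11 stood above both BPK 4NQO basal levels, 19 below both and 8 between, where 27.3% of 13014 genes stood above and 51.7% below. Ercc1 stood farthest above among members over 20 CPM, with 97.5 CPM in tumor keratinocyte cells, against 34.3 and 16.1 in BPK 4NQO basal cells. Ddb1 had 131 in the tumor cells, against 68.6 and 85.9 in BPK 4NQO basal cells. Below both lay Xpc, the lesion sensor, with 4.13 in the tumor cells against 13.6 and 15.5 in BPK 4NQO basal cells. Rev1, the scaffold of translesion synthesis, had 5.71 in the tumor cells, against 17.0 and 21.3. Rev3l had 7.01 in the tumor cells, against 18.5 and 55.5, and Lig3 had 7.59, against 17.0 and 29.7. Cell type and tissue differ here at once and cannot be told apart.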

How the data were processed

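The deposited files hold whole UMI counts of genes in cell barcodes. Per the file headers, the authors ran Cell Ranger 3.0.2 on PK 4NQO and 5.0.1 elsewhere, and the submitters' processing notes name mm10. The labels' protocols give 3' v2 chemistry for all libraries, which was not tested for BPK 4NQO replicate 2. How cells were called, the annotation release and the strand setting are not stated in labels or headers.

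The 38 members and all gene lists were chosen with earlier results of these data known. Barcodes under 300 genes or over 20% mitochondrial counts, and 2025 doublets (scrublet in scanpy 1.11.5), were left out. Each library was clustered alone (Leiden, resolution 2) without the members among its variable genes, and clusters were named from markers. A pooled clustering was given up after its cluster names were seen, before member values were compared.

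Counts were summed per library and class with at least 30 cells and scaled to CPM, or tested with edgeR 4.0.16 (R 4.3.3): filterByExpr, TMM, quasi-likelihood F test, Benjamini-Hochberg over all genes, threshold 0.05. Gland and tumor models have 1 residual degree of freedom, from the BPK 4NQO pair, and a group with 1 library is taken to vary as that pair does. A standard error is |log2 fold change| divided by √F. The scripts were tested on simulated data. Named genes are those called, and per comparison and class the 2 highest and 2 lowest log2 fold changes among members with at least 20 CPM and the same side in both replicates; the text gives a selection of these. Other settings tried were RLE factors, DESeq2 1.42.0, no filter, only the compared libraries, doublets kept, a 10% mitochondrial limit, a direct marker gate and left-out libraries. Leaving out 5 clusters without a named counterpart in BPK 4NQO was added after seeing the data.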

Additional observations from a re-analysis of the deposited data

How the results depend on the processing

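No member was called in the treatment or the genotype comparison under any alternative run (DESeq2, RLE factors, no filter, only the compared libraries, doublets kept, a 10% mitochondrial limit, a direct marker gate, and, chosen after seeing the data, leaving out clusters with no named counterpart in BPK 4NQO). In the tumor comparison the count of 1 became 0 with DESeq2, without a filter on low counts, with doublets kept and with the direct marker gate; the cause was not tested. Leaving out a BPK 4NQO replicate leaves no residual degree of freedom, so no count was made there. The cycling count of 9 became 5 without the library block, whose construction leaves library differences in the error. It was 6 with thinned cells, where 31 members were tested and BPK 4NQO replicate 2 was left out. The count ranged from 7 to 8 when 1 gland library was left out and was 10 without the tumor. Ddb1 lost its call in 8 settings, among them each left-out gland library. Rpa1, Rpa3 and Rev3l lost theirs without the block, and Rev3l also without BPK 4NQO replicate 1 (adjusted p = 0.0501, edgeR). In tumor endothelium the log2 fold change of Uvssa was -2.98 without BPK 4NQO replicate 1 and -2.35 without replicate 2. Of the values that passed no test, 3 changed sign: Ube2b in hormone-sensing cells between genotypes was 0.0167 without replicate 2 and -0.7577 without replicate 1, Gtf2h5 in T cells between genotypes was 0.10 with doublets kept, and Gtf2h1 in endothelium between treatments was 0.0169 with doublets kept. No paired analysis of the groups was possible because no label pairs libraries across groups. Depth limits the low members: 18 of 38 were not tested in gland macrophages.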

Other observations

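The S phase genes, which replicate DNA and are not members, moved in 1 class of the treatment comparison. Among 20 of them, 2 fell in hormone-sensing cells of BPK 4NQO glands relative to vehicle and 0 rose: Rrm2, a ribonucleotide reductase subunit (-3.87 ± 0.76, adjusted p = 0.000205), and Mcm5, a helicase subunit (-2.96 ± 0.78, adjusted p = 0.0270). Over all genes 0.643% passed in that class. The list summed to 135 and 222 CPM in BPK 4NQO hormone-sensing cells, and 414 in vehicle. Without the vehicle clusters led by Upk3a neither gene passed (Rrm2 -2.93 ± 0.82, adjusted p = 0.112, and Mcm5 -1.62 ± 0.89, adjusted p = 1, edgeR). In cells of that class with none of the proliferation genes the list summed to 132 and 149 in BPK 4NQO, and 149 in vehicle.

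In fibroblasts of BPK 4NQO glands 0.324% of all genes passed relative to vehicle. Of 14 p53 target genes 1 did, the receptor gene Eda2r, which rose (edgeR, adjusted p = 0.0141). It had 7.68 and 26.1 CPM in BPK 4NQO fibroblasts (11 and 127 counts), and 0 counts in vehicle, where 3 counts would have given 1.65 CPM. In the tumor comparison Phlda3 rose in hormone-sensing cells (2.57 ± 0.75, adjusted p = 0.0377) and Trp53inp1 fell in fibroblasts (-2.91 ± 0.88, adjusted p = 0.0395). These were 1 of 13 and 1 of 14 tested, where 1.96% and 2.8% of all genes passed. Keratinocyte markers were raised in both classes of the tumor, as given above, and their part was not tested. In cycling epithelial cells Btg2, an antiproliferative p53 target, fell by 0.98 on the log2 scale (SE 0.13, adjusted p = 0.000912). It was 1 of 13 p53 targets tested there, and 5.77% of all genes fell.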
